A study of Rattus norvegicus with 6 samples.

Results

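The endothelial and vascular growth genes described here were 8 genes chosen by name: the growth factor Vegfa and its receptors Flt1 and Kdr, the endothelial proteins Egfl7, Cav1 and Ace, and the adhesion molecules Icam1 and Vcam1. Every probe set that the array's annotation ties to exactly 1 symbol, equal to one of these names, was kept. That gave 14 probe sets for the 8 genes, out of 4736 genes named in this way on the whole array. Of the 14 probe sets, 11 passed a filter on low values and were tested, at least 1 for each gene, and the other 3 are given by their values only. In short, Egfl7 fell in cultured ovaries against birth. Egfl7 at postnatal day 4 (lower) and 1 of 2 Icam1 probe sets in cultured ovaries (higher) also passed, but both calls were lost under several alternatives, Icam1 passing in 6 of 16 and Egfl7 at day 4 in 4 of 16. For the other 6 genes no tested probe set passed. Cav1 did so under some alternatives, in cultured ovaries against birth (lower) in 8 of 16. At postnatal day 4 (lower) it passed in 2 of 17, the fits with the chip ID batch as a fixed or a random block. In those fits 314 and 335 of all 6118 tested probe sets passed, against 66 in the main fit.

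RNA of whole rat ovaries was measured on 6 Affymetrix short-oligonucleotide arrays, 2 in each of 3 groups. The cultured group held ovaries taken on the day of birth and kept for 7 days on floating filters in a DMEM and Ham's F-12 mixture with bovine serum albumin, Albumax, transferrin, insulin, ascorbic acid and antibiotics. The P4 group held ovaries taken on postnatal day 4, and the P0 group ovaries taken on the day of birth. Each array carried RNA of a pool of about 20 ovaries from female pups, the 2 pools of a group being independent per the labels, so animals cannot be told apart within a pool. The strain is not given in the sources used here, and no genetic change is named. The series design text also speaks of progesterone given to cultured ovaries, which no sample label states, so whether either cultured array was treated is unsettled and both are used as labelled. A cultured ovary has no blood flow, and it differs from a P4 ovary and from a P0 ovary both in time and in culture.

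The vascular endothelial growth factor encoded by Vegfa binds the receptor tyrosine kinases Kdr, which carries most of its growth signal, and Flt1, which binds it more tightly and often acts as a trap. Egfl7 is a secreted protein made mainly by endothelial cells, Cav1 builds the caveolae that are abundant in endothelium and also present in fibroblasts, smooth muscle and fat cells, and Ace is the enzyme on the surface of vessels that forms angiotensin II. Icam1 and Vcam1 stand on activated endothelium, where the integrins of leukocytes bind them, and their genes are textbook targets of the transcription factor NF-kappaB. In the ovary, vessels enter the medulla before birth and later serve the growing follicles.

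The promoter windows of both adhesion genes and both receptors are shown because these are the members whose windows held, or by textbook regulation might hold, an NF-kappaB site. Sequences are from RefSeq on build GRCr8, where all 8 genes were found. Each window runs from 250 bases before to 50 bases after an annotated transcript start, in the direction of the gene, with matches to the NF-kappaB consensus and to the TATA box in capitals.
Vcam1 promoter window: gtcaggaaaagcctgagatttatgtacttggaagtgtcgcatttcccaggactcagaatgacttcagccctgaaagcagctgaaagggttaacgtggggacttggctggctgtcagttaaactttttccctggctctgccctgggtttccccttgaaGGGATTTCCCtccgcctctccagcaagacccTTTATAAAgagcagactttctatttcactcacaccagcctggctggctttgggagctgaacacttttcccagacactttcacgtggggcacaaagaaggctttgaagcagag
Icam1 promoter window: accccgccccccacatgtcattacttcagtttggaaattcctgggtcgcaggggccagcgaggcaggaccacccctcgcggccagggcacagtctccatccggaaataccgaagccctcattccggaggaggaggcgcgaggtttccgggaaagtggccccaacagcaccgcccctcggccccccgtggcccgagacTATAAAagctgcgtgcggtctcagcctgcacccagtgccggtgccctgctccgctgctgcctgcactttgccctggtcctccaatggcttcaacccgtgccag
Flt1 promoter window: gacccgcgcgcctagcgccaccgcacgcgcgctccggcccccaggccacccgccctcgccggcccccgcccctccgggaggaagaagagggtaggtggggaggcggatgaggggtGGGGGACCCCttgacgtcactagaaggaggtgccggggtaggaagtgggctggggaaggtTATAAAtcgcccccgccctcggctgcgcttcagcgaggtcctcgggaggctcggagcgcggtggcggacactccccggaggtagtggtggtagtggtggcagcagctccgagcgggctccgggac
Kdr promoter window: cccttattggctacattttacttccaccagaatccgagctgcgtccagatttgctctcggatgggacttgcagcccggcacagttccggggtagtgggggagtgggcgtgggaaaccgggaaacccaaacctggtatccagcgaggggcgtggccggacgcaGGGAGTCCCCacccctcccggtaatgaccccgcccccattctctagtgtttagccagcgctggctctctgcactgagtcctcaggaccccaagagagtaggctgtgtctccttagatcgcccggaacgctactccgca
The Vcam1 window lies at chr2:206742734-206743033 on the minus strand. Its NF-kappaB match, GGGATTTCCC, begins at -93, counted so that the first transcribed base is 1, and overlapping TATA matches on the 2 strands follow at -62 and -60. The Icam1 window, chr8:27829595-27829894 on the plus strand, had a TATA box at -53 and no match to the NF-kappaB consensus in these 300 bases. A site that departs from the consensus is not marked in any window, so a window may hold sites beyond those in capitals. Flt1 at chr12:12333180-12333479 on the plus strand had an NF-kappaB match at -135 and a TATA box at -75, and Kdr at chr14:32571813-32572112 on the plus strand had an NF-kappaB match at -88. Motifs were searched on both strands, and a match that reads on both strands was counted as 1 place. Over all 33469 promoter windows of the table, 7.51% held the NF-kappaB consensus, 14.2% TATAAA, 33.1% the GC box GGGCGG and 19.3% the hypoxia element core ACGTG. For Vegfa, the nearer window to the gene's first base held 3 GC boxes and no ACGTG, and the Vcam1 window held 3 places with ACGTG, the last 2 overlapping. No window of Egfl7, Cav1, Ace or Vegfa held the NF-kappaB consensus. A match is a run of letters and was not tested as a binding site.

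Egfl7 is shown with a further sequence because a microRNA known for its part in vessel integrity lies inside it. The Egfl7 gene spans chr3:29802481-29814966 on GRCr8, and within it RefSeq places rno-miR-126a-3p at chr3:29813219-29813240 on the plus strand. Its seed, bases 2 to 8, is in capitals, and its level was not analysed here.
rno-miR-126a-3p: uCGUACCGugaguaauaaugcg

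Values are probe set intensities on the authors' linear scale, and changes are differences of log2(intensity + 7.7) with a standard error (SE) from one limma model over all 6 arrays. A probe set passed where its Benjamini-Hochberg adjusted p over all 6118 tested probe sets was under 0.05. With 2 arrays in a group no exact permutation test can give a p under 0.33. The highest reading of 23 control probe sets without a spiked transcript was 20, so a probe set under 20 could not be told from them. The trimmed mean was 125.2 on every array, replicates correlated at 0.962 to 0.969 across probe sets, and the number of arrays limits the precision. Among the control probes GAPDH set P0 replicate 1 apart, at 1324.2 by its 3′ probe set, against 2162.3 to 2775.1 on the other arrays. Beta-actin did not, at 4703.3 by its 3′ probe set, the lowest reading but near the 4816.5 of cultured replicate 2. Member calls against P0 are given with and without P0 replicate 1, the one for Egfl7 at P4 as a range. P4 and P0 arrays of the same replicate number come from the same chip ID batch, called A for replicate 1 and B for replicate 2, while the 2 cultured arrays come from separate ones. The cultured group can therefore not be told apart from its batches.

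The comparison of P4 with P0 ovaries asked how these genes differed over the first days after birth, when primordial follicles form. Of the 11 tested member probe sets, 1 was lower at P4, none was higher and 10 did not pass, where 1.08% of all 6118 passed, 0.229% as lower. At an unadjusted p under 0.05 in limma, 3 members were lower and 0 higher, where 6.46% of all probe sets were lower and 6.51% higher. There were 9 negative changes and 2 positive ones, a median of -0.52 against -0.05 over all tested probe sets. The signs are not separate for each gene, as several of the negative ones came from Vegfa alone, and the Icam1 probe sets differed in sign. The share of negative changes over all tested probe sets was not counted. In 7 of the 11, both P4 arrays read under both P0 arrays, and in none above, where 44.2% of all probe sets had groups that did not overlap, 25.7% lower and 18.6% higher.

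The comparison of cultured with P0 ovaries asked how these genes differed after 7 days in culture, where time and culture cannot be told apart. Here 1 member probe set was higher, 1 was lower and 9 did not pass, against 5.43% of all tested probe sets, 3.48% higher and 1.95% lower. At an unadjusted p under 0.05 in limma, 2 were higher and 4 lower, where 10.2% of all probe sets were higher and 10.5% lower. The median change of the members was -0.08 and that of all probe sets also -0.08. Both cultured arrays lay above both P0 arrays for 4 of the 11 and under them for 5, where 50.4% of all probe sets did either, 21.3% above and 29% under.

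Between cultured and P4 ovaries no member passed, where 2.78% of all tested probe sets did, 2.16% higher and 0.621% lower. At an unadjusted p under 0.05 in limma, 6 members differed, 5 higher and 1 lower in culture, where 7.63% of all probe sets were higher and 6.39% lower. The median was 0.21 for members and -0.04 for all probe sets. Cultured arrays lay wholly above P4 arrays for 5 of the 11 and wholly under them for 2, where 43.6% of all probe sets did either, 19.1% above and 24.5% under. The comparisons with P0 share the P0 arrays and those with cultured ovaries the cultured arrays, so they are not independent of each other.

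**Figure D1:**
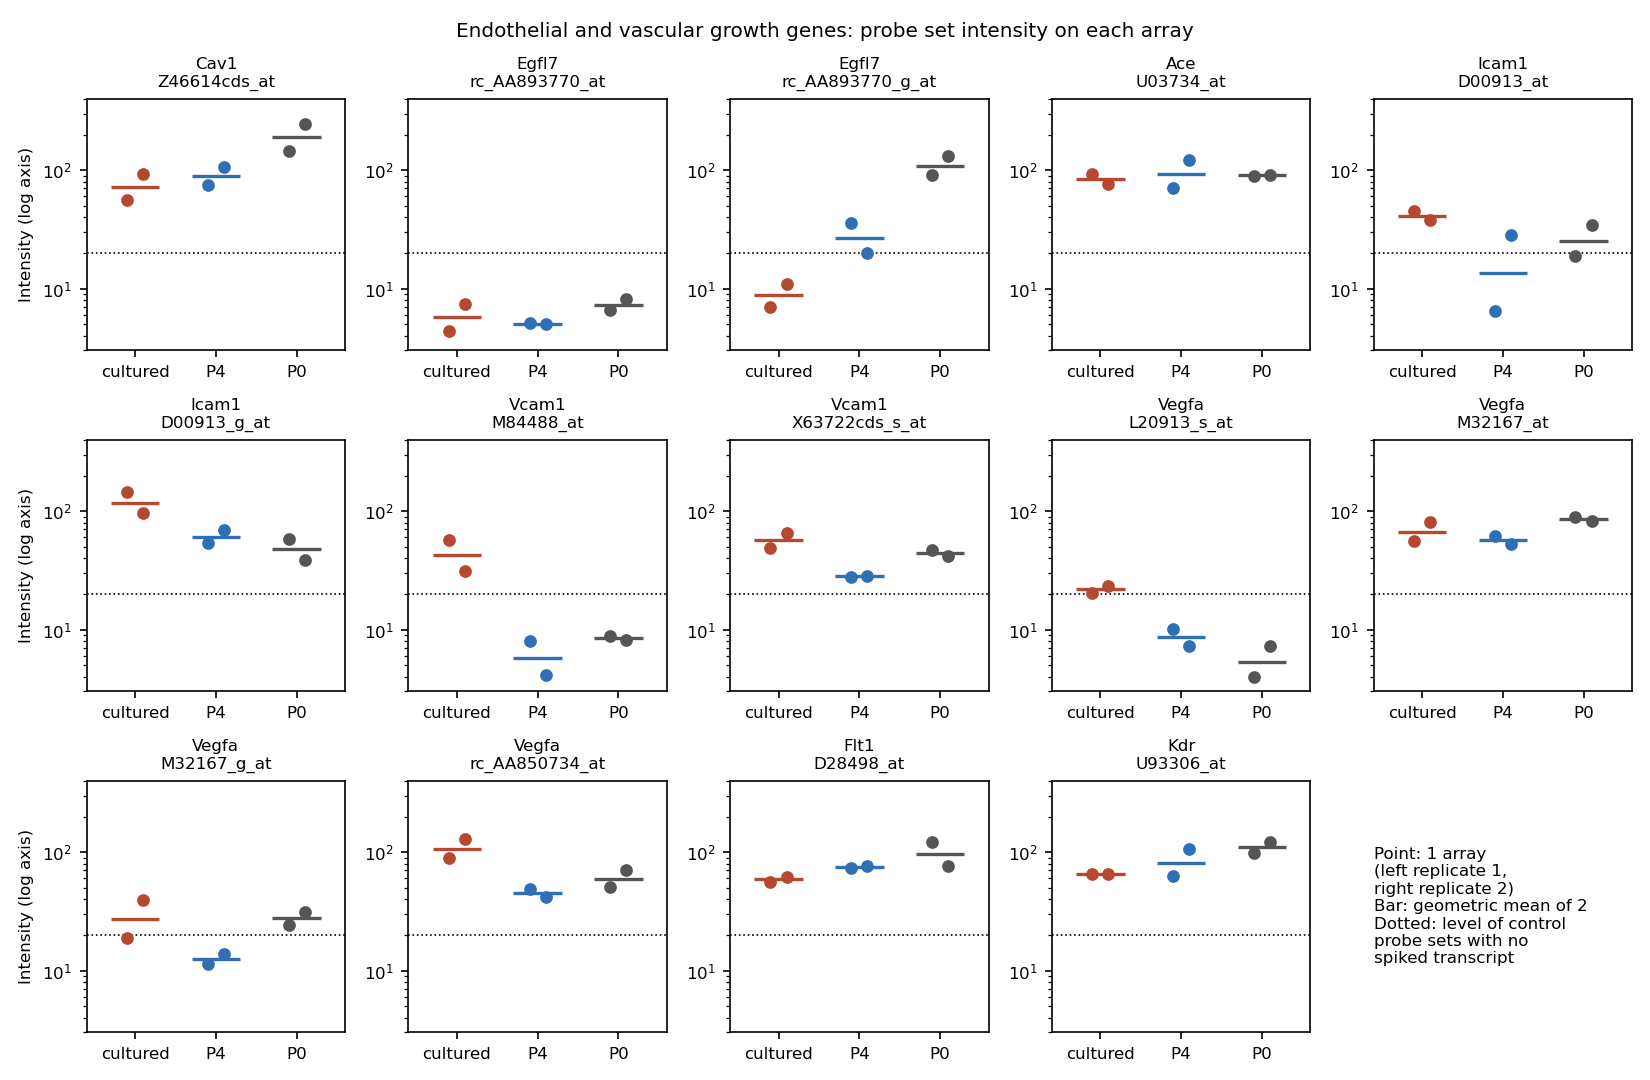
Intensity (log axis) of each of the 14 member probe sets on the 2 cultured, 2 P4 and 2 P0 arrays; points are arrays, bars geometric means, and the dotted line is the level of 20 read by control probe sets with no spiked transcript. The Egfl7 probe set rc_AA893770_g_at is lowest on the cultured arrays, higher at P4 and highest at P0, Icam1 D00913_g_at and Vcam1 M84488_at are highest in culture, and Ace is level.

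Egfl7 had the largest log2 change of the 11 tested probe sets in both comparisons with P0. Its probe set rc_AA893770_g_at read 7 and 10.9 in cultured ovaries, 35.7 and 20 at P4, and 90.8 and 131.2 at P0. The 3 groups did not overlap, with P0 highest and cultured ovaries lowest, both cultured arrays lying under the level of the empty controls. Egfl7 fell in cultured ovaries, at 8.95 ± 2.76, against 111 ± 28.6 at P0 (SD, n = 2 each), a log2 change of -2.82 (SE 0.32, limma adjusted p = 0.00123). Because the cultured arrays were dim, the fold is a bound, at least 5.46-fold lower in cultured ovaries. The call held without P0 replicate 1 (-3.07, limma adjusted p = 0.00511) and without each other array, with adjusted p from 0.000542 to 0.022.

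At P4 Egfl7 was also lower, at 27.9 ± 11.1 against 111 ± 28.6 at P0 (SD, n = 2 each), a change of -1.75 (SE 0.32, limma adjusted p = 0.0401). The change was -1.18 in chip ID batch A and -2.33 in batch B, and with the batch as a block the limma adjusted p was 0.00724. Leaving out any 1 of the 6 arrays ended the call, with changes of -2.08 to -1.43 and adjusted p from 0.0708 to 0.25, highest without P0 replicate 2. Cultured and P4 ovaries, whose arrays did not overlap, differed by -1.07 (SE 0.32), which did not pass (limma adjusted p = 0.137). P4 replicate 2, at 20, lay at the level of the empty controls and the cultured arrays under it. That fold is thus a bound, at least 1.34-fold lower in cultured ovaries. The other Egfl7 probe set, rc_AA893770_at, read 4.4 to 8.1 on all 6 arrays, under the level of the empty controls throughout, and was not tested. It could therefore not show a change, and the result for Egfl7 rests on 1 probe set. In whole ovaries, fewer endothelial cells and less RNA per cell cannot be told apart.

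Cav1, measured by Z46614cds_at, read 56.3 and 93.4 in cultured ovaries, 75.6 and 106.7 at P4, and 144.8 and 246.5 at P0. Both P0 arrays lay above the other 4, while the cultured and P4 arrays overlapped. The change in cultured ovaries against P0 was -1.29 (SE 0.32, limma adjusted p = 0.0515), just short of the threshold. Without P0 replicate 1 it was -1.66 (limma adjusted p = 0.0427), and without P0 replicate 2 it was -0.92 (limma adjusted p = 0.241). At P4 the change against P0 was -1.01 (SE 0.32, limma adjusted p = 0.196). It was -0.87 in batch A and -1.15 in batch B, and the fit with the batch as a block on the P4 and P0 arrays, in which 5.13% of all probe sets passed, gave a limma adjusted p of 0.0146. The order of levels was thus P0 first, with P4 and cultured ovaries not separated, differing by -0.28 with a 95% interval of -1.01 to 0.45.

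Ace showed no order. Its probe set U03734_at read 93 and 77.1 in cultured ovaries, 70.7 and 122.2 at P4, and 89.5 and 91.1 at P0. The arrays of all 3 groups overlapped, with the P4 pair lying farthest apart. The cultured minus P0 change was -0.08, with a 95% interval of -0.70 to 0.53, and the P4 minus P0 change was 0.04, with one of -0.57 to 0.65. A further probe set, L36664_s_at, is annotated to both Ace and Ace3 and is not counted among the members. It read 44.8 and 51.2 in cultured ovaries, 39.5 and 32.6 at P4, and 44.5 and 56.9 at P0, and passed in no comparison.

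Vegfa, the ligand, had 4 probe sets, which did not move together. The probe set rc_AA850734_at read 89.3 and 128.5 in cultured ovaries, 48.9 and 41.6 at P4, and 50.5 and 70.1 at P0. Cultured arrays lay above all others, with a change of 1.12 against P4 (SE 0.26, limma adjusted p = 0.0608) and 0.77 against P0 (SE 0.26, limma adjusted p = 0.134), neither of which passed. For M32167_at the values were 56.1 and 80.3 in cultured ovaries, 61.8 and 53 at P4, and 88.7 and 82.8 at P0. Here the P0 arrays were highest, and the cultured minus P0 change was -0.32 (SE 0.24, limma adjusted p = 0.508).

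The remaining Vegfa probe sets were dim. M32167_g_at read 18.8 and 39.4 in cultured ovaries, 11.4 and 13.8 at P4, and 24.4 and 31.2 at P0, with both P4 arrays under the level of the empty controls. L20913_s_at, left out by the filter, read 20.3 and 23.4 in cultured ovaries, 10.2 and 7.2 at P4, and 4 and 7.2 at P0, so that it exceeded that level on the cultured arrays alone. Tested without the filter, which was not planned beforehand, it did not pass in cultured ovaries against P0 (limma adjusted p = 0.058). With the P0 arrays under that level the fold is a bound, at least 1.09-fold higher in cultured ovaries. Over the 6 arrays the correlation of log2 values between 2 Vegfa probe sets ranged from -0.24 (L20913_s_at with M32167_at) to 0.84 (L20913_s_at with rc_AA850734_at), a description over arrays that share the group structure. Which transcripts each probe set matches was not analysed here.

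Of the receptors, Flt1 by D28498_at read 56.3 and 61.5 in cultured ovaries, 73.1 and 76.7 at P4, and 121.8 and 77 at P0. The 3 groups did not overlap, though P4 replicate 2 and P0 replicate 2 read almost the same. The changes were -0.65 in cultured ovaries against P0 (SE 0.26, limma adjusted p = 0.18) and -0.34 at P4 against P0 (SE 0.26, limma adjusted p = 0.644). By batch the P4 minus P0 change was -0.68 in A and -0.01 in B.

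Kdr by U93306_at read 65.2 and 65.3 in cultured ovaries, 62.8 and 106.1 at P4, and 98.6 and 121.9 at P0. Cultured arrays lay under both P0 arrays, and the P4 pair overlapped both other groups. In cultured ovaries the change against P0 was -0.69 (SE 0.27), with a 95% interval of -1.29 to -0.08 before any adjustment and a limma adjusted p of 0.186. At P4 it was -0.39 (SE 0.27, limma adjusted p = 0.613), and -0.59 and -0.19 within batches A and B.

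**Figure D2:**
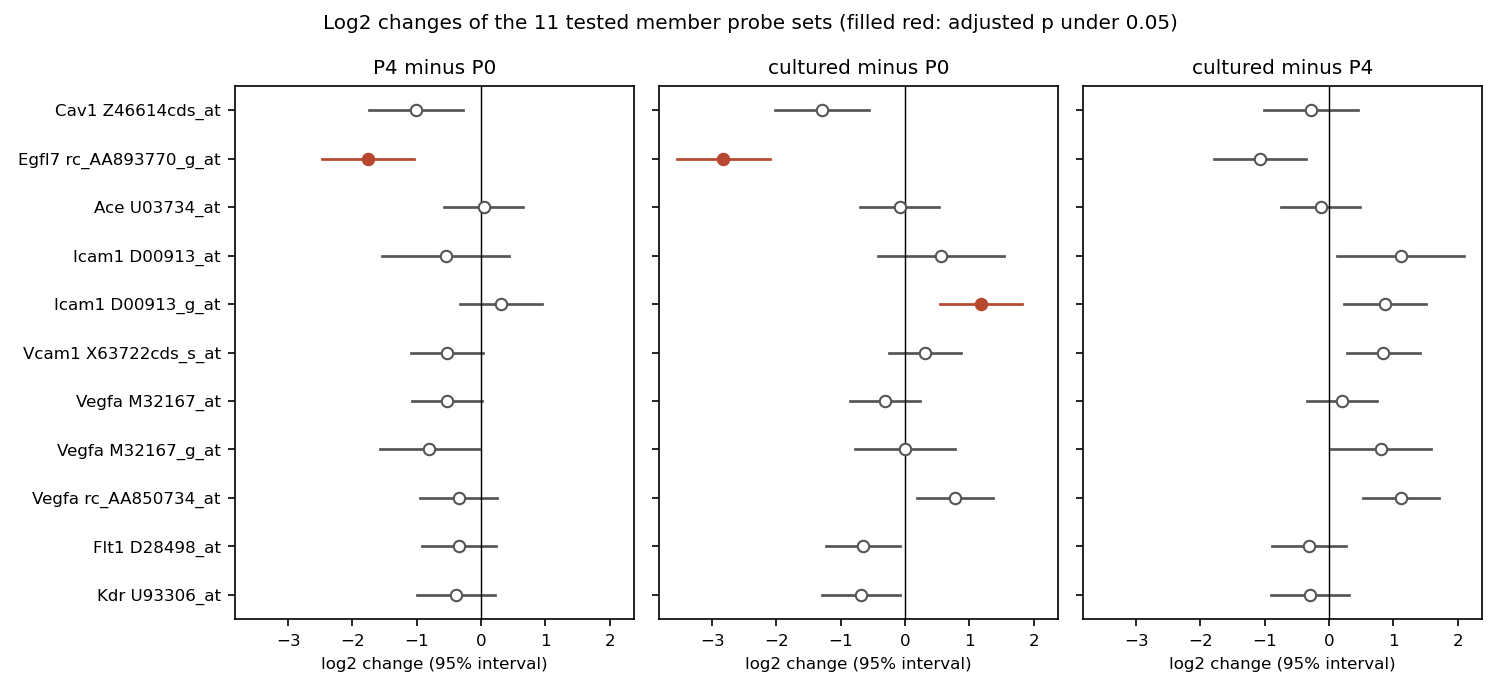
Log2 change (x axis, bars are 95% intervals from limma) of the 11 tested member probe sets for P4 minus P0, cultured minus P0 and cultured minus P4; filled red points passed. Egfl7 passed as lower in the first 2 comparisons at -1.75 and -2.82, Icam1 D00913_g_at passed as higher at 1.19 in the second, and none passed in the third.

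Icam1 rose in cultured ovaries by 1 of its 2 probe sets. D00913_g_at read 144.9 and 96.1 in cultured ovaries, 53.5 and 69.2 at P4, and 58.3 and 38.6 at P0. Both cultured arrays lay above the other 4, whose groups overlapped. The mean was 120.5 ± 34.5 in cultured ovaries and 48.5 ± 13.9 at P0 (SD, n = 2 each), a change of 1.19 (SE 0.28, limma adjusted p = 0.0431). The call was lost without P0 replicate 1 (1.44, limma adjusted p = 0.0565), without P0 replicate 2 (0.93, 0.2), without cultured replicate 1 (0.91, 0.223) and without cultured replicate 2 (1.46, 0.0885). Against P4 the change was 0.88 (SE 0.28, limma adjusted p = 0.176).

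The other Icam1 probe set, D00913_at, read 45.1 and 37.9 in cultured ovaries, 6.5 and 28.6 at P4, and 18.8 and 34.1 at P0. Its cultured arrays were again the highest, while 1 array each at P4 and P0 lay under the level of the empty controls. Its changes in cultured ovaries, 0.56 against P0 (SE 0.44, limma adjusted p = 0.519) and 1.11 against P4 (SE 0.44, limma adjusted p = 0.284), did not pass. With the mean of both probe sets tested in place of each, Icam1 had a difference of 0.87 in cultured ovaries against P0 (limma adjusted p = 0.13).

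Vcam1 was likewise highest in cultured ovaries by both of its probe sets. X63722cds_s_at read 48.7 and 65.7 in cultured ovaries, 27.8 and 28.4 at P4, and 46.6 and 41.6 at P0. The groups did not overlap, with P4 lowest, yet no difference passed: the change was 0.31 in cultured ovaries against P0 (SE 0.25, limma adjusted p = 0.526), 0.85 against P4 (SE 0.25, limma adjusted p = 0.133), and -0.53 at P4 against P0 (SE 0.25, limma adjusted p = 0.425). M84488_at, left out by the filter, read 57.6 and 31 in cultured ovaries, 8 and 4.1 at P4, and 8.9 and 8.2 at P0. It exceeded the level of the empty controls on the cultured arrays and on none of the other 4.

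A test of Vcam1 M84488_at over all 8740 probe sets without the filter was not planned beforehand. In it the probe set passed as higher in cultured ovaries against P0, where 2.96% of probe sets passed, by 1.63 (limma adjusted p = 0.0402). Against P4, where 1.67% passed, it was higher by 1.88 (limma adjusted p = 0.0313). It was at least 2.11-fold higher in cultured ovaries against either group. Each call held in 6 of 12 alternatives. Quantile normalization ended both (limma adjusted p = 0.0619 against P0 and 0.0772 against P4), and a pseudocount of 1 ended the one against P0 (0.0552). It was also lost without P0 replicate 1 (limma adjusted p = 0.143), P0 replicate 2 (0.157), cultured replicate 1 (0.137) or cultured replicate 2 (0.0795). The one against P4 was lost without P0 replicate 1 (limma adjusted p = 0.051), P4 replicate 1 (0.0907), P4 replicate 2 (0.167), cultured replicate 1 (0.112) or cultured replicate 2 (0.0565).

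**Figure D3:**
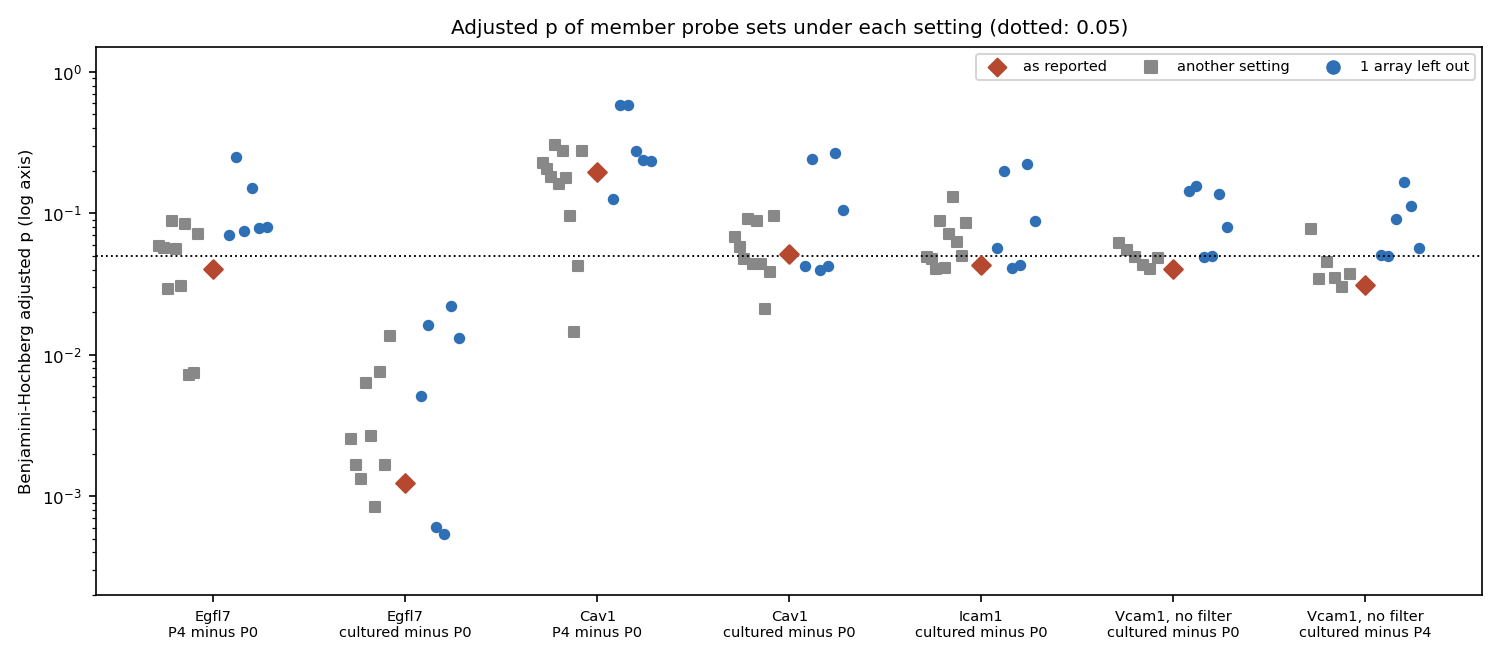
Adjusted p (log axis) of 5 member results and of the 2 Vcam1 results without the filter, as reported (red diamonds), under other settings (grey squares) and with 1 array left out (blue points); the dotted line is 0.05. Egfl7 in cultured ovaries against P0 stays under the line throughout, at 0.022 at most, and the other results cross it.

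Genes that act beside the members were read from lists of the same pathways, by the brightest probe set of each gene. In VEGF and angiopoietin signalling, 11 of 19 listed genes were on the array and 8 were tested, and 0 passed in any comparison (medians 0.05 for P4 minus P0, -0.14 for cultured minus P0 and -0.00 for cultured minus P4). At an unadjusted p under 0.05 in limma, 1 was lower at P4 and 1 in cultured ovaries against P0, Pdgfb in both. Pdgfb, which recruits pericytes to new vessels, read 10.3 and 12.7 in cultured ovaries, 12.4 and 10.4 at P4, and 22.3 and 40.2 at P0. All 4 cultured and P4 readings lay under the level of the empty controls, so its difference is only bounded, at least 1.5-fold lower in cultured ovaries against P0, and it did not pass (limma adjusted p = 0.141). Hif1a, the oxygen-regulated factor that drives Vegfa, had a log2 difference of 0.43 at P4 against P0 (limma adjusted p = 0.452) and of -0.40 in cultured ovaries against P4 (limma adjusted p = 0.463). Vegfd and Nrp2 lay under the level of the empty controls on all 6 arrays.

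Of 24 genes of endothelial identity and junctions, 14 were on the array and 10 were tested, with 1 lower in cultured ovaries against P0 and 0 passing otherwise, while the limma unadjusted p was under 0.05 for 0 at P4 against P0 and for 2 in cultured ovaries against P4 (medians -0.17, -0.27 and -0.10 in the same order of comparisons). The one was Lyve1, the hyaluronan receptor of lymphatic endothelium, which some macrophages also carry. It read 11.8 and 11.1 in cultured ovaries, 25.1 and 29.3 at P4, and 35.3 and 43.3 at P0, 3 groups that did not overlap. The cultured minus P0 change was -1.29 (SE 0.28, limma adjusted p = 0.0291), at least 1.96-fold lower, and it did not pass without P0 replicate 1 (0.0795), P0 replicate 2 (0.159), cultured replicate 1 (0.0961) or cultured replicate 2 (0.115). Plat, the tissue plasminogen activator released by endothelium and made by granulosa cells too, read 475.3 and 521 in cultured ovaries, 364.4 and 367.6 at P4, and 322 and 376.6 at P0, a cultured minus P0 change of 0.51 (limma adjusted p = 0.164). The thrombin receptor Thbd had a log2 difference of -0.47 in cultured ovaries against P0 (limma adjusted p = 0.274), and the nitric oxide synthase Nos3 one of -0.29 (limma adjusted p = 0.546). By their other tested probe sets the differences were smaller, -0.08 for Thbd, and -0.11 and 0.03 for Nos3. Of the caveolae list, 2 of 8 genes were on the array and tested, and neither passed, nor had a limma unadjusted p under 0.05 (medians -0.16, -0.22 and -0.05), Cavin3 having a log2 difference of -0.23 in cultured ovaries against P0 (limma adjusted p = 0.529).

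In the renin-angiotensin and kinin list, to which Ace belongs by function, 9 of 14 genes were on the array and 7 were tested (medians -0.46, -0.27 and 0.16). Agtr2, the type 2 angiotensin receptor, abundant in fetal mesenchyme, fell in cultured ovaries. It read 19.1 and 3.3 in cultured ovaries, 65.7 and 66.3 at P4, and 99.9 and 162.4 at P0, with the cultured arrays under the level of the empty controls and the groups apart. The change was -2.98 against P0 (SE 0.40, limma adjusted p = 0.00364), at least 6.37-fold lower, and -2.10 against P4 (SE 0.40, limma adjusted p = 0.0231), at least 3.3-fold lower. The call against P0 held in all 14 alternatives run, and that against P4 in 8 of 14. The second was lost with quantile normalization (limma adjusted p = 0.0603), the replicate number as a block (0.0623), no filter (0.0613), and without P4 replicate 1 (0.0777), P4 replicate 2 (0.0681) or cultured replicate 2 (0.121). At P4 against P0 the change was -0.88 (limma adjusted p = 0.404, and 0.0488 with the batch as a block). These values are for the probe set D16840_s_at. By the other tested Agtr2 probe set, U01908cds_s_at, cultured ovaries were lower against P0 (-2.14, limma adjusted p = 0.00683). Against P4 that probe set did not pass (-0.87, limma adjusted p = 0.256). Bdkrb1, a kinin receptor, had a log2 difference of -0.87 in cultured ovaries against P0 (limma adjusted p = 0.0979), and its other tested probe set one of -0.42 (limma adjusted p = 0.718).

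Among the integrins that meet Icam1 and Vcam1 and the NF-kappaB genes, 9 of 17 were on the array and 6 were tested (medians -0.06, 0.26 and 0.19). Il1b, the cytokine interleukin 1 beta that induces both adhesion molecules in endothelium, rose in cultured ovaries. It read 186.8 and 117.7 in cultured ovaries, 19.2 and 21.1 at P4, and 27 and 19.9 at P0, and the cultured arrays lay far above the rest. The change was 2.34 against P0 (SE 0.28, limma adjusted p = 0.002) and 2.49 against P4 (SE 0.28, limma adjusted p = 0.00151). Nfkb1, an NF-kappaB subunit, had a log2 difference of 0.45 in cultured ovaries against P0 (limma adjusted p = 0.362), its inhibitor Nfkbia one of -0.07 (limma adjusted p = 0.893) and the integrin subunit Itgb1 one of 0.23 (limma adjusted p = 0.482). Itgam, Tnf and Il1r1 lay under the level of the empty controls on all arrays.

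Of 11 angiogenesis inhibitors and matrix genes, 4 were on the array and 3 were tested (medians -0.29, -0.56 and -0.28). Spp1, the adhesive matrix protein osteopontin, rose in cultured ovaries, with 1482.2 and 903.9 in cultured ovaries, 28.1 and 35.4 at P4, and 34.8 and 27.3 at P0. Its change was 4.92 against P0 (SE 0.28, limma adjusted p = 1.39e-05) and 4.89 against P4 (SE 0.28, limma adjusted p = 1.25e-05). Timp3, an inhibitor of metalloproteinases that also blocks Kdr, had a log2 difference of -1.10 in cultured ovaries against P0 (limma adjusted p = 0.0929).

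**Figure D4:**
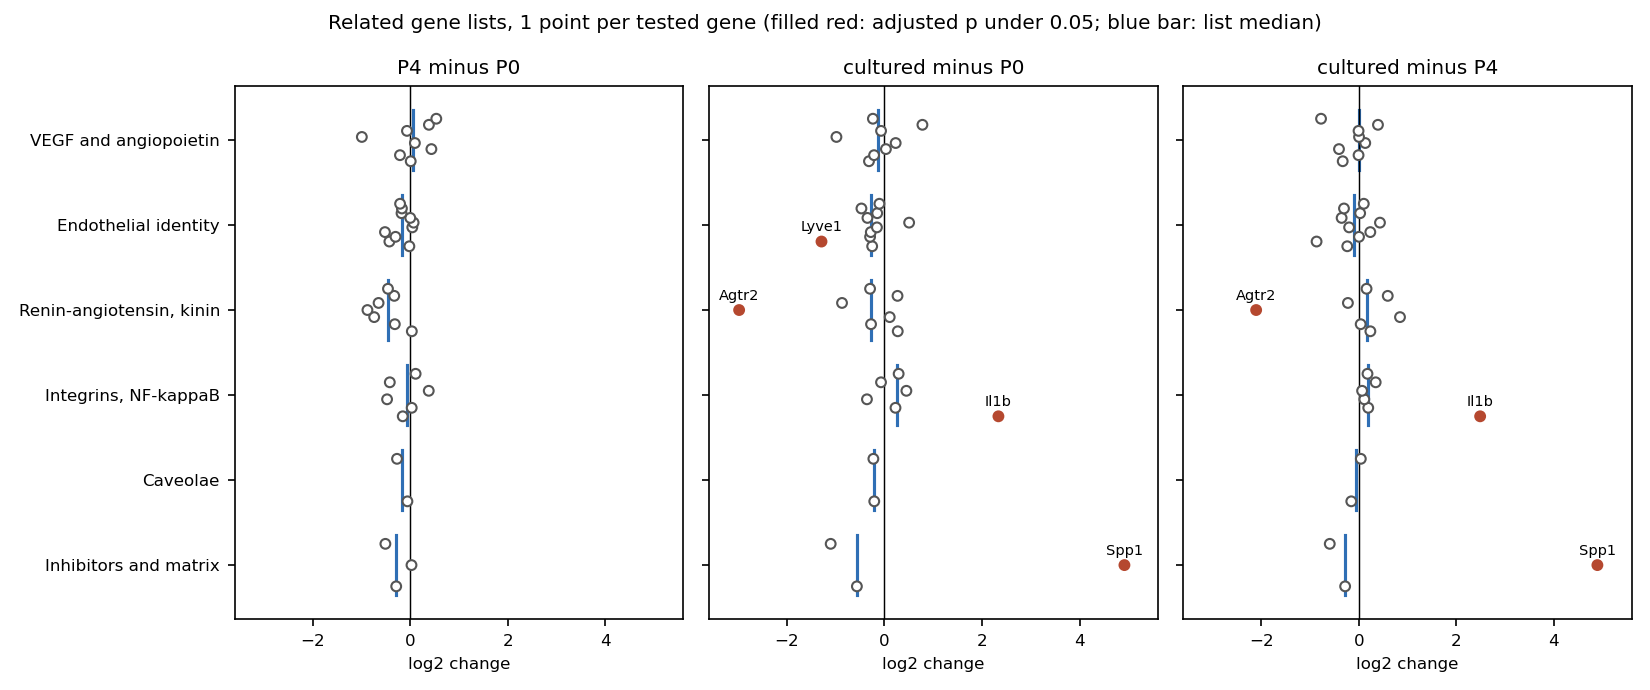
Log2 change (x axis) of each tested gene, 1 point per gene by its brightest probe set, for 6 related lists in P4 minus P0, cultured minus P0 and cultured minus P4; filled red points passed and blue bars are list medians. The 4 named genes, Lyve1, Agtr2, Il1b and Spp1, passed, as plotted, only in comparisons with cultured ovaries, and each list median lies between -0.56 and 0.26.

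The labelled tissue was set against markers of endothelium and of its neighbours. Of 9 defining endothelial markers, 5 were on the array, with Vwf under the level of the empty controls on every array. Their summed intensity was 169.5 to 229.4 in cultured ovaries, 226 to 295.3 at P4, and 371.4 to 413.7 at P0, a sum that holds the members Egfl7, Flt1 and Kdr. Pecam1, the junction protein CD31 and no member, read 33.3 and 79.2 in cultured ovaries, 43.8 and 83.2 at P4, and 47.8 and 71.8 at P0. The groups of Pecam1 overlapped, with a cultured minus P0 change of -0.15 (SE 0.40, limma adjusted p = 0.875).

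Beside the higher readings of Icam1, Vcam1 (passing only without the filter), Il1b and Spp1, most tested macrophage and leukocyte markers were higher in cultured ovaries. Their sum, over 12 of 20 genes on the array, was 2081.8 to 4150.7 in cultured ovaries, 385.4 to 468.5 at P4, and 606.7 to 728.1 at P0, and 6 of the 9 tested genes passed as higher in cultured ovaries against each other group (medians 1.65 against P0 and 2.56 against P4), with Itgam under the level of the empty controls on all arrays. Lyz2, the lysozyme of macrophages, read 2267 and 955.7 in cultured ovaries, 89 and 102.8 at P4, and 110.8 and 141.3 at P0. Ptprc, C1qc and Cd74 did not pass. Their cultured minus P0 changes were 0.06, 0.04 and 1.29, and their cultured minus P4 changes -0.19, 0.83 and 1.45. Erythroid markers, 6 of 12 on the array, summed to 205.3 to 239.8 in cultured ovaries, 3365.7 to 4477.3 at P4, and 6035 to 6184.5 at P0, and 3 of 5 tested passed as lower in cultured ovaries against P0, beside the lower Egfl7. Smooth muscle and pericyte markers, 11 of 13 on the array, summed to 1263.6 to 2318 in cultured ovaries, 2031.5 to 2389.1 at P4, and 1603.4 to 1938 at P0, and 0 of 11 passed in any comparison. At an unadjusted p under 0.05 in limma, 2 of the 11 were higher at P4 against P0, 3 were higher in cultured ovaries against P0 and 1 was lower in them against P4. The part of these cell types in the results for the members was not tested.

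**Figure D5:**
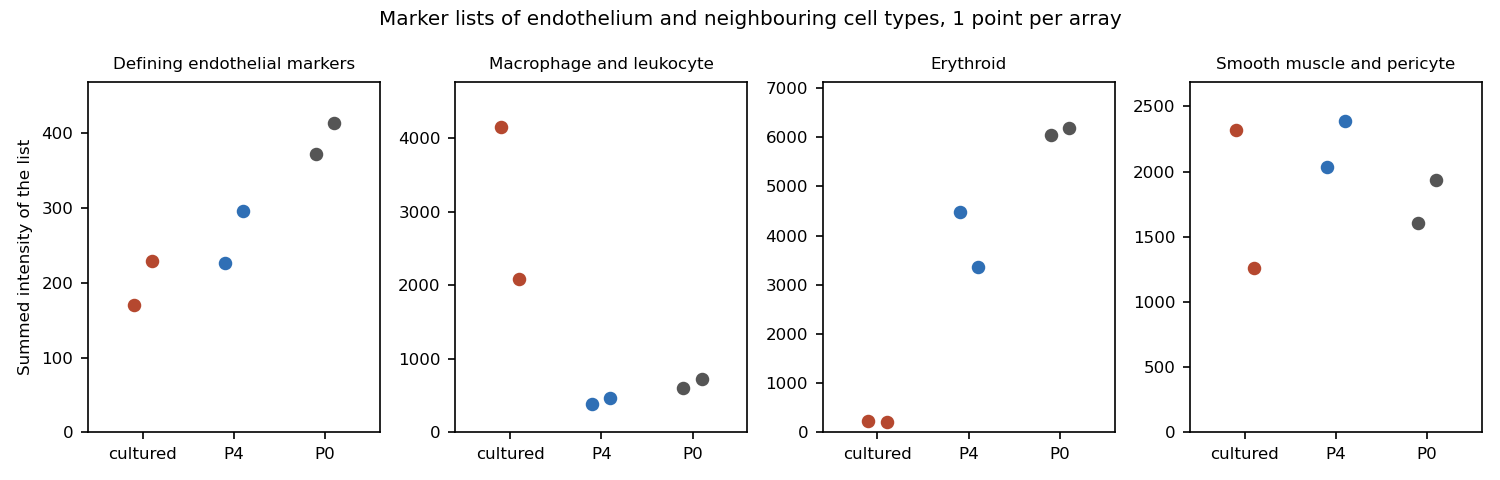
Summed intensity (linear axes from 0, each with its own scale) of 4 marker lists on each array, 2 per group, for cultured, P4 and P0 ovaries. Endothelial sums are highest at P0 (371.4 to 413.7), with cultured (169.5 to 229.4) and P4 arrays (226 to 295.3) overlapping. These sums hold the members Egfl7, Flt1 and Kdr, so they are no separate result, and the groups of the non-member Pecam1 overlapped. Erythroid sums are lowest and macrophage sums highest in culture. Smooth muscle sums are higher at P4 than at P0, with the cultured pair spanning both P0 arrays.

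For each member, the named genes whose log2 values ran most alike over the 6 arrays were found by Pearson's r with its brightest tested probe set, among up to 5026 probe sets. With only 6 arrays in 3 groups, high values are found for any profile, so they describe likeness and no more. Egfl7 was closest to Ralgapa1 (r = 0.99), Apoc3 (0.99) and Cbr1 (0.99), and Cav1 to Igfals (1.00), Adam10 (0.98) and Jag2 (0.98). For Ace the closest were Kcna5, Abcc1 and Myl12b (0.96 each), for Vegfa Ormdl3, Tpm4 and P2rx2 (0.99 each), for Flt1 Rhd, Sycp2 and Or4c52 (0.98 to 0.99) and for Kdr Alpl, Igfbp2 and Pdp1 (0.98 each). Icam1 was closest to Scgb1c1, Kxd1 and Synj1 (0.98 to 0.99), and Vcam1 to Gucy2d, Rnase4 and Egln3 (0.97 to 0.99).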

How the data were processed

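Expression in whole rat ovaries was read on 6 Affymetrix arrays. The authors deposited 1 linear intensity per probe set for 8799 probe sets, already scaled: the mean after trimming 2% at each end was 125.2 on all arrays. The algorithm behind these intensities is not given in the sources used here, and no detection calls were used. Trizol extraction and a biotin label are stated per the labels' protocols.

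No further normalization was applied. Values were taken to log2 after adding 7.7, which is their 20th percentile. Excluded were 59 control probe sets and then, as dim, the 2622 whose mean log2 value fell below the 30th percentile. One limma model (3.58.1, R 4.3.3) with 3 group means and a variance trend was fitted to the 6 arrays (3 residual and 6.45 prior degrees of freedom), two-sided, with Benjamini-Hochberg adjustment over 6118 probe sets. It was tested on simulated data. The P4 and P0 arrays of a number share a chip ID batch, per the labels, and their deviations from the group means correlated at 0.33, so that pairing was also fitted as a block. "At least" folds set arrays under 20 to 20, a level chosen after the values were seen.

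Symbols came from the platform annotation, 1 for 7018 probe sets, several for 308 and none for 1473, and 6994 matched the RefSeq GRCr8 table by gene number. The members and lists were chosen with earlier results of these data known. Named were all members, in the 6 vascular lists the genes that passed and up to 3 others per list with the smallest p, and the 3 most alike genes per member. Pecam1, Lyz2, Ptprc, C1qc, Cd74, Fabp4, Cd36, Socs3, Hmox1, Slc2a1, Krt8, Krt18, Amh and Wt1, from the marker lists, were singled out after their values were seen. The stroma, granulosa, oocyte, surface epithelium, adipocyte and culture stress lists are in the closing section. Nothing shows that the 2 pools of a group came from separate litters, so p-values measure the spread between pools.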

Additional observations from a re-analysis of the deposited data

How the results depend on the processing

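Counts of passing probe sets for P4 minus P0, 66 as reported, were 23 without the filter, 29 without the variance trend, 31 with the replicate number as a block over all arrays, 314 with the chip ID pairing as a block, 335 with it as a random block and 24 with values set to at least 20 (an alternative chosen after seeing the data). Leaving out 1 array gave 15 to 50 for P4 minus P0, 84 to 356 for cultured minus P0 (332 as reported) and 78 to 195 for cultured minus P4 (170 as reported). Egfl7 at P4 against P0 lost its call, by limma adjusted p, with quantile normalization (-1.72, 0.0583), a pseudocount of 1 (-1.99, 0.0571), no filter (-1.75, 0.0882), no trend (-1.75, 0.0562), the replicate number as a block (-1.75, 0.0837), values set to at least 20 (-2.03, 0.0714) and without each array (-2.08 to -1.43). In cultured ovaries against P0 Egfl7 passed in all 15 alternatives that kept its probe set. The filter at the 50th percentile left that probe set out as dim, so the call could not be tried there. Icam1 D00913_g_at in cultured ovaries against P0 lost its call with no filter (1.19, 0.0888), no trend (1.19, 0.0712), the gene mean (0.87, 0.13), the replicate number as a block (1.19, 0.0632), the random block (1.19, 0.0501) and values set to at least 20 (1.31, 0.0848), and ranged from 0.91 to 1.46 with 1 array left out. Cav1 in cultured ovaries against P0 passed in 8 of 16 alternatives, at -1.29 with a limma adjusted p of 0.0212 with the replicate number as a block and 0.0385 with the random block. The replicate number pairs cultured with P0 arrays of other chip ID batches, a pairing that the values do not support. The cause of these shifts was not tested.

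Signs turned only for changes far from passing. In cultured ovaries against P0, Vegfa M32167_g_at turned to 0.07 with quantile normalization, 0.01 with a pseudocount of 32, 0.15 for the gene mean, 0.02 with values set to at least 20, 0.14 without P0 replicate 2 and 0.41 without cultured replicate 1 (range with 1 array left out -0.42 to 0.41). Pecam1 turned to 0.11 and 0.39 under those last 2 omissions (range -0.70 to 0.39), Nfkbia to 0.13 without P0 replicate 1 (-0.27 to 0.13), and Ace to 0.04 without cultured replicate 2 (-0.21 to 0.04). The Vegfa gene mean was 0.15, where M32167_at alone was -0.32. At P4 against P0, Icam1 turned to -0.12 for the gene mean, Icam1 D00913_at to 0.13 without P4 replicate 1 (-1.23 to 0.13), and Ace to -0.32 without P4 replicate 2 (-0.32 to 0.41). In cultured ovaries against P4, Ace turned to 0.24 (-0.49 to 0.24) and Kdr to 0.05 (-0.64 to 0.05) without P4 replicate 2, Cav1 to 0.05 without cultured replicate 1 (-0.61 to 0.05), and Vegfa M32167_at to -0.03 without cultured replicate 2 (-0.03 to 0.44). Signal near the level of the empty controls limits Egfl7, Vcam1 M84488_at and Vegfa L20913_s_at, whose folds are bounds. The pairing of same-numbered cultured arrays is not supported by the values, with correlations of -0.135 with P0 and -0.054 with P4.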

Other observations

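In the adipocyte list, 3 of 5 tested genes rose in cultured ovaries against each other group. One of them was Fabp4, a fatty acid carrier of fat cells that capillary endothelium and macrophages also make. It read 512.3 and 783.3 in cultured ovaries, 111.4 and 30.1 at P4, and 9.3 and 1.5 at P0, with no overlap between groups. It was at least 31.7-fold higher in cultured ovaries against P0 (log2 change 5.68, SE 0.50, limma adjusted p = 0.000248), and its change against P4 was 3.26 (SE 0.50, limma adjusted p = 0.00706). Cd36, a fatty acid receptor found on microvascular endothelium, fat cells and macrophages, read 22.4 and 31.8 in cultured ovaries, 20 and 25.6 at P4, and 18.5 and 28.6 at P0, and did not pass against P0 (limma adjusted p = 0.825).

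In the culture stress list, 0 of 9 tested genes rose in cultured ovaries against P0 by limma, with 4 higher at an unadjusted p under 0.05, and 1 fell. Against P4, 1 rose and 1 fell. The one that fell in both was Socs3, a suppressor of cytokine signals, at 7.6 and 5.4 in cultured ovaries, 30.4 and 28.7 at P4, and 33.8 and 45.7 at P0 (at least 1.96-fold lower against P0, limma adjusted p = 0.0113, and at least 1.48-fold lower against P4, limma adjusted p = 0.037). The one that rose against P4 was Hmox1, the heme-degrading enzyme heme oxygenase, at 291 and 189.3 in cultured ovaries, 64.8 and 104.6 at P4, and 110.6 and 152.1 at P0 (log2 change 1.43 against P4, limma adjusted p = 0.0365, and 0.82 against P0, limma adjusted p = 0.155). Slc2a1, a glucose transporter induced by low oxygen as Vegfa is, read 359.5 and 763.9 in cultured ovaries, 243.4 and 221.3 at P4, and 239.4 and 261.5 at P0, a change of 1.05 against P0 that did not pass (limma adjusted p = 0.0933). In cultured ovaries against P0, 1 of 8 stroma genes was lower by limma, and 3 of 4 oocyte genes were higher. Of 8 granulosa genes 2 were higher, the keratins Krt8 and Krt18. At an unadjusted p under 0.05 in limma, 3 granulosa genes were higher and 2 lower, Amh (-0.53) and Wt1 (-1.28). Of the stroma genes 1 was higher and 4 lower at that threshold. By limma 0 of 2 surface epithelium genes passed, with 1 higher and 1 lower at an unadjusted p under 0.05.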
